A study of Homo sapiens with 12 samples.

Results

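The comparison set the first batch of SCC4 KO eHAP1 cells against the second, both profiled by LAST-seq, in which single-stranded RNA captured from a cell is amplified directly by in vitro transcription. Cells were assigned by the batch number at the start of each column name in the deposited table, which gave 77 cells for batch 1 and 76 for batch 2. These 153 cells are part of 403 wells in the whole series and of 301 eHAP1 cells of both genotypes. Both batches share the label SCC4KO, and no difference in treatment is labelled. By the study's methods, eHAP1 is a haploid human line, and SCC4 was knocked out with a Cas9 ribonucleoprotein. Edited cells were expanded from single-cell clones, and the haploid state was kept with 10-Deacetylbaccatin-III. Whether both batches carry the same edited allele is not given in the sources used here. Live G1-phase cells were sorted by DNA content and viability dye into lysis buffer. WT eHAP1 cells, also in batches 1 and 2, and HEK293T cells, a human embryonic kidney line, in 2 LAST-seq libraries, served as the background for a batch difference. Each batch was 1 library of pooled cells, so there was no test between batches, and no p-value was computed. The study describes its cells as coming from a clonally expanded population, which need not mean that both batches came from one and the same clone, and what the batch number marks apart from the library is not given in the sources used here.

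SCC4, listed as MAU2, is the partner of NIPBL in the complex that loads cohesin onto DNA. Cohesin extrudes chromatin loops until it meets CTCF, which builds topologically associating domains, and it also holds sister chromatids together. Losing the loader is known to weaken loops and domains across the genome. The crRNA used for the knockout is shown because it gives the place targeted for the edit. It matched one place on chromosome 19 of GRCh38, chr19:19338850-19338869 on the plus strand, inside coding exon 5 of MAU2 (chr19:19320829-19358754, plus strand). The protospacer is in lower case, and the capitals mark the adjacent PAM read from the genome.
SCC4 crRNA target: gcacacgcttgagaaggaccTGG

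MAU2 itself was still counted in both KO batches. In batch 1 it held at least 1 UMI in 33 of 77 cells, with a lowest value of 0, a median of 0 and a highest value of 4 UMIs. Of these cells, 22 held 1 UMI, 7 held 3 and 4 held 4, with none at 2. In batch 2 MAU2 held at least 1 UMI in 70 of 76 cells, with a median of 2 and a highest value of 9 UMIs. The values of the batches overlapped, and cells of batch 2 held more UMIs in all. After scaling every cell to 111254 UMIs, the mean was 0.971 UMIs per cell in batch 1 and 1.58 in batch 2, a log2 ratio of -0.68, under the 2-fold threshold used throughout. With every cell thinned to 40000 UMIs the ratio was -1.04, past the threshold. The scaled means of the WT batches were higher, at 4.94 and 4.50 UMIs. The study reports read coverage enriched toward the poly-A end of transcripts, and UMIs were counted per gene. The count therefore does not show whether the edited exon was intact or a full-length protein was made.

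Depth, in UMIs per cell, differed between the batches. Cells of batch 1 held 44947 to 174633 UMIs with a median of 81736, and cells of batch 2 held 62873 to 320102 with a median of 152295, 1.86-fold more. The median number of genes detected was 8776 in batch 1 and 10928.5 in batch 2. Mitochondrially encoded transcripts took a median of 20.99% and 21.14% of UMIs, and ribosomal protein transcripts 10.4% and 10.5%. Of the cell barcodes, 75 were used in both batches, since the barcodes come from one set of primers. Markers of a haematopoietic origin were near 0: none of 10 reached a mean of 1 UMI in either batch, and their means summed to 0.273 and 0.263 UMIs, with PTPRC not listed. All 5 genes of an eHAP1 working set (LIN28B, IGF2BP1, VIM, BCR and ABL1) were found, and all 5 reached a raw mean of 1 UMI in batch 2 against 3 in batch 1. After scaling, 1 of the 5 was past 2-fold, higher in batch 2. All 5 also reached that raw mean in both HEK293T libraries. Of 7 HEK293T markers, 3 and 4 reached it in the KO batches, PAX2 and LHX1 among them in both. Neither list therefore separated the lines.

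The form of the deposited values bears on every low gene reported here, MAU2 included. Among genes with a mean of 1 to 3 UMIs and at least 5 cells above 1 UMI, 52.6% in batch 1 (2005 of 3813) and 33.7% in batch 2 (1329 of 3942) had no cell at exactly 2 UMIs. In the WT batches the shares were 28% and 56.8%. In the HEK293T libraries, of 10 cells each, they were 4.15% and 2.35%. The limit of 5 cells kept 2167 of 3590 and 2131 of 3526 genes there. In the KO batches it kept 3813 of 3814 and 3942 of 3943. The HEK293T genes were thus selected more strictly, for values above 1 UMI in a larger part of the cells, and the shares are not matched. The study's methods name ComBat-seq, which rewrites counts to remove batch effects, as a step before burst parameters were fitted. Whether the deposited table precedes or follows that step is not stated, so the ratios below describe the deposited values. This holds for near-equal means of abundant genes as well as for differences, and the part of any adjustment in them was not tested.

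**Figure D1:**
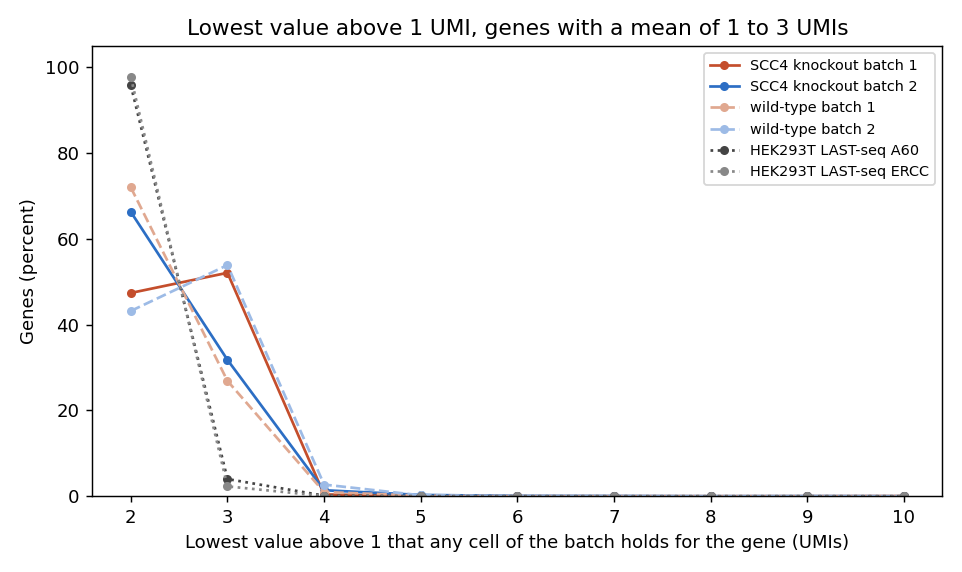
For genes with a mean of 1 to 3 UMIs and at least 5 cells above 1 UMI, the lowest value above 1 held by any cell (x axis, UMIs) is plotted against the percent of genes (y axis) in each eHAP1 batch and HEK293T library. The lowest value was 2 UMIs for 95.8% and 97.7% of genes in the HEK293T libraries, for 47.4% in batch 1 of SCC4 KO cells and for 66.3% in batch 2. The limit of 5 cells left out more genes in the HEK293T libraries.

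Most genes had nearly the same mean in both batches, and the differences lay among genes counted 1 to 3 times per cell. Of 10081 genes with a raw mean of at least 1 UMI in either batch, 525 (5.21%) were past 2-fold after scaling. Of these, 137 (1.36%) were higher in batch 1 and 388 (3.85%) in batch 2, and 31 and 55 genes were past 4-fold. The median log2 ratio over all genes was -0.0019 and the median absolute log2 ratio 0.115. In 4016 genes whose higher batch mean was 1 to 3 UMIs, 506 (12.6%) were past 2-fold, and the SD of the log2 ratio across genes was 0.68. From 3 to 10 UMIs, 16 of 3895 genes (0.411%) were, with an SD of 0.25. From 10 UMIs upwards, 3 of 2170 genes (0.138%) were, with an SD of 0.14.

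With at least 5 UMIs in either batch, 6 genes were past 2-fold, named here after their values were seen. Higher in batch 2 were VAT1L, the potassium channel genes KCNQ3 and KCNJ2, the long noncoding RNA PVT1 and the histone H3 lysine methyltransferase KMT2D. Higher in batch 1 was DNAJC28, which encodes a J-domain protein. KCNJ2 had scaled means of 3.07 and 11.1 UMIs (log2 ratio -1.83), was detected in 51.9% of batch 1 and in all cells of batch 2, and stood at 2.44 and 1.01 UMIs in the WT batches. KMT2D had scaled means of 1.59 and 4.73 UMIs (log2 ratio -1.54), against 1.53 and 1.85 in WT. For both, batch 2 of the KO cells was the highest of the 4 eHAP1 batches.

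**Figure D2:**
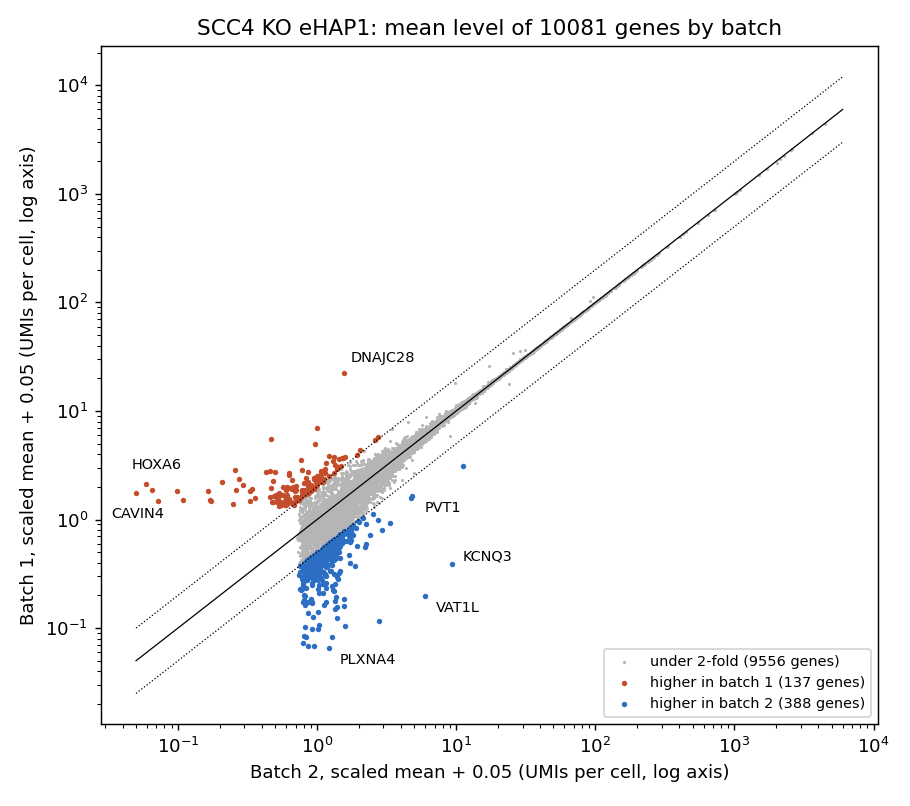
Scaled mean of each of 10081 genes in batch 2 (x axis) and batch 1 (y axis) of SCC4 KO cells, in UMIs per cell plus 0.05, on log axes. The solid line marks equal means and the dotted lines 2-fold, and the 137 genes higher in batch 1 and the 388 higher in batch 2 gather at the low end, with DNAJC28, KCNQ3 and VAT1L further out.

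VAT1L (chr16:77788564-77980107, plus strand), a relative of the vesicle amine transport protein that marks some neurons, had the lowest log2 ratio of all genes tested, and 1 cell carried most of it. In batch 1, 69 cells held no UMI and 8 cells held 1. In batch 2, 24 cells held none, 49 held 1, 1 cell held 4, 1 held 8 and 1 held 456 UMIs. That last cell, with barcode TGTTCC, had 125979 UMIs in all, of which VAT1L was 0.362%, and it supplied 88.2% of the VAT1L UMIs of its batch. The raw means were 0.104 and 6.80 UMIs, the scaled means 0.149 and 5.93, and the log2 ratio -4.91. Without the highest cell of each batch the ratio was -1.97, and the raw mean of batch 2 was 0.813. The share of cells with a UMI did not rest on that cell: it was 10.4% in batch 1 (95% exact binomial interval 4.59 to 19.4%) and 68.4% in batch 2 (56.8 to 78.6%). These and all intervals below cover counting error only, and they assume random counting. The gene was therefore near 1 UMI per cell in most of batch 2, rather than on in one batch and off in the other by the rule used below, and it was not listed in the WT table.

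Cells that stood alone were then looked for in every tested gene, a search added after VAT1L was seen. A cell was counted where it held at least 50 UMIs of a gene and at least 5 times the next cell. Among the genes this gave were MBNL3, RNF24, BCAT2, SRD5A1, DNAJC28 and LINC00559 in batch 1, and SRD5A1 and VAT1L in batch 2. SRD5A1, a steroid 5-alpha reductase, reached 1531 UMIs in one cell of batch 1 and 3677 in one cell of batch 2, against a next highest cell of 20 and 26. Both cells bore barcode TCTCAG.

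LINC00559 showed the same recurrence across genotypes. The cell with barcode GTCAAC was the highest in all 4 eHAP1 batches, at 633 and 457 UMIs in KO batches 1 and 2 and at 292 and 313 UMIs in WT. For SRD5A1 the 3 highest cells of batch 2 held 3677 UMIs (barcode TCTCAG), 26 UMIs (barcode CTCAGT) and 17 UMIs (barcode TCAGAC), and these were the only 3 of 78 barcodes that contain the letters TCAG. These letters were chosen after the order in batch 2 was seen. In batch 1 the second highest cell, at 20 UMIs, bore CGCTAA, which lacks them, ahead of the cell with CTCAGT at 19. In the WT batches the TCTCAG cells held 0 and 3 UMIs of SRD5A1, so there the recurrence was absent. MBNL3, RNF24 and BCAT2 peaked in the same cell of batch 1, with barcode TGCGAT, at 560, 123 and 580 UMIs, and in batch 2 that barcode ranked 55, 15 and 13 for them. The VAT1L barcode TGTTCC held 1 UMI in batch 1, as did 7 other cells. A link between barcode and gene was not tested further.

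DNAJC28 (chr21:33488055-33491716, minus strand) was the counterpart of VAT1L among genes higher in batch 1. A single cell held 1310 of the 1404 UMIs of batch 1, 93.3%, and the next cell held 5. Of the rest of batch 1, 51 cells held 1 UMI. Batch 2 had 47 cells at 0, 18 at 1 and 8 at exactly 11 UMIs, with a highest cell of 37. The log2 ratio was 3.86 with all cells and 0.38 without the highest cell of each batch, so the call rested on 1 cell. PP12613 drew most of its UMIs of batch 1 from 2 cells, at 197 and 127 of 367 UMIs, with a median of 0 over the others. Its log2 ratio was 2.79, and 2.18 without the highest cell of each batch, where the cell of 127 UMIs still counted.

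Genes on in one batch only were defined as those with a UMI in at least 50% of the cells of one batch and in at most 5% of the other. In batch 2 only, 14 genes (0.139% of those tested) were on, and in batch 1 only, 5 genes (0.0496%). No shared pathway was read from so few genes. The batch with more UMIs per cell held more of them. With every cell thinned to 40000 UMIs, only KCNQ3, LRRC31 and FAM133DP of the 19 genes also met the rule. Thinning left a smaller part of a batch 2 cell (median 152295 UMIs) than of a batch 1 cell (median 81736). A batch 2 gene near 1 UMI per cell could then hardly reach 50% of cells. The part of depth in these calls was not tested.

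KCNQ3 (chr8:132120861-132481095, minus strand), a subunit of the M-type potassium channel that damps neuronal firing, was the most abundant of the genes on in batch 2. All 76 cells of batch 2 held it, from 1 to 71 UMIs with a median of 7. In batch 1, 76 cells held none and 1 cell held 13. The raw means were 0.169 and 12.1 UMIs, and the ratio of summed UMIs per total was 39.0-fold in favour of batch 2 (95% exact interval 22.7 to 73.6). Both WT batches were near 0, at scaled means of 0.058 and 0.015 UMIs, so batch 2 of the KO cells stood apart from the other 3 eHAP1 batches.

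PLXNA4 (chr7:132123340-132648688, minus strand), a plexin receptor for semaphorins in axon guidance, was off in batch 1 but for 1 cell at 1 UMI. In batch 2, 43 cells held 1 UMI, 24 held 2, 8 held 3 and 1 held 4, so no cell was at 0. The ratio of summed UMIs was 65.6-fold (11.5 to 2611), with a wide interval as batch 1 held a single UMI. WT cells were at 0.013 and 0.0099 UMIs. CFAP47, a cilia and flagella associated gene on the X chromosome, had the same form, with 3 of 77 cells at 1 UMI in batch 1 and all 76 cells at 1 to 5 UMIs in batch 2, 27.9-fold (9.37 to 137). RBM47, an RNA-binding protein of splicing and RNA editing, was detected in 3 cells of batch 1 and 70 of batch 2, with a highest cell of 16 UMIs and a ratio of 18 (5.98 to 88.8).

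The remaining genes on in batch 2 were mostly long noncoding or low-level transcripts. ITPRIPL2 was detected in 2 of 77 and 63 of 76 cells, and CFAP210, a second cilia and flagella associated gene, in 3 and 59. POU2F1-DT, a divergent transcript of the octamer factor POU2F1, was detected in 2 and 68 cells, although WT cells held it at 0.736 and 1.43 UMIs. LINC02482, LINC01973, ENSG00000286125, ENSG00000248738, ENSG00000234484 and ENSG00000280381 were each detected in 1 to 3 cells of batch 1 and in 61 to 76 cells of batch 2. RN7SKP255, a copy of the 7SK small nuclear RNA whose reads can be split among its near-identical copies, was detected in 3 and 75 cells.

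Among the 5 genes on in batch 1 only, HOXA6 (chr7:27145396-27150603, minus strand) had the largest log2 ratio of all genes tested, 5.19. It is a homeobox gene of the HOXA cluster, which patterns the body axis. In batch 1, 73 cells held exactly 1 UMI, 3 held 2 and 1 held 30. In batch 2, 75 cells held none and 1 held 1. No cell of batch 1 was without it, and the ratio of summed UMIs was 198-fold (34.8 to 7885), again with a single UMI in the lower batch. Random counts, which the intervals assume, have a variance equal to their mean. In the batch where each gene was on, the variance over the mean was 0.35 for PLXNA4, 0.27 for LRRC31 and 0.27 for MEGF11. It was 15.8 for KCNQ3, which was spread over all cells. It was 7.72 for HOXA6, where it rested on the cell at 30 UMIs, since all other cells held 1 or 2. The intervals may therefore not hold their stated level. HOXA6 was not listed in the WT table.

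CAVIN4, a caveola protein of muscle, held no UMI in any of 76 cells of batch 2, which allows a share of cells with a UMI of up to 3.95% (3 over the number of cells). In batch 1, 59 of 77 cells held 1 to 5 UMIs, at least 58.7-fold higher against a floor of 3 UMIs over batch 2. Here both WT batches had the gene, at 0.677 and 0.688 UMIs, so batch 2 of the KO cells was the one that stood apart. LRRC31, a leucine-rich repeat gene, was held by all 77 cells of batch 1 at 1 to 4 UMIs and by 2 cells of batch 2, 93.5-fold (25.2 to 782). MEGF11, a transmembrane protein with EGF-like repeats, was held by 70 and 2 cells, 76.2-fold (20.5 to 640), and stayed near 0 in WT at 0.012 and 0.0098 UMIs. FAM133DP, a processed pseudogene whose reads may come from related copies, was held by 73 and 2 cells, 30.2-fold (13.4 to 84.4).

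**Figure D3:**
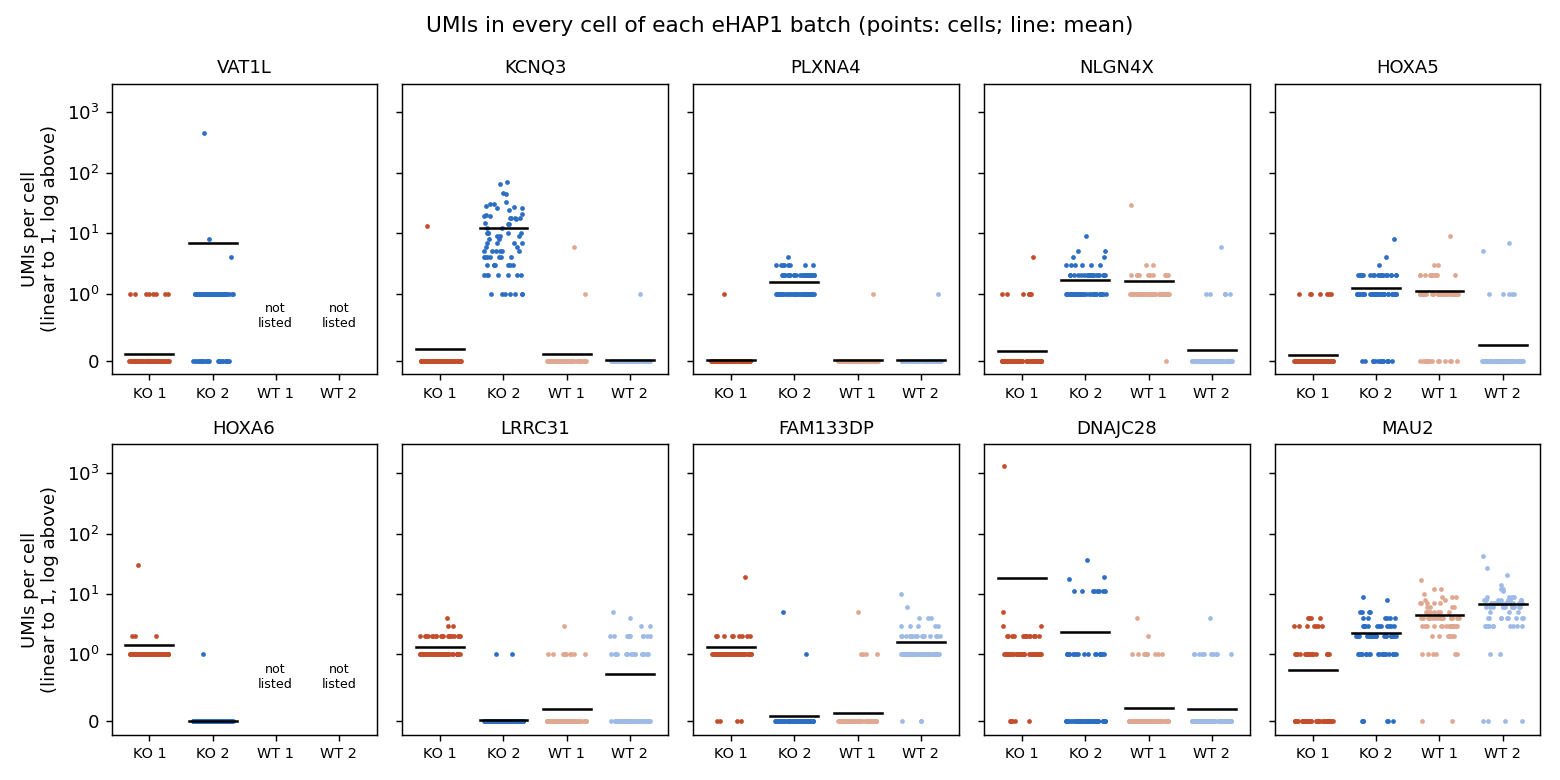
UMIs in every cell (y axis, linear to 1 and log above) for 10 genes in batches 1 and 2 of SCC4 KO (KO) and WT cells, with 1 point per cell and a line at the mean. The VAT1L mean of 6.80 UMIs in KO batch 2 was set by the cell at 456, whereas KCNQ3 was spread over all 76 cells, and NLGN4X, HOXA5 and FAM133DP changed places between the genotypes.

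Other genes with the largest ratios did not meet the on and off rule but were low in one batch. Higher in batch 1 were the axonemal dynein heavy chain DNAH1 (77 and 12 cells with a UMI, log2 ratio 3.43), the leishmanolysin-like peptidase LMLN (77 and 22 cells, 3.46), the synaptic interleukin receptor accessory protein IL1RAPL1 (67 and 8 cells, 3.09) and the protocadherin PCDH17 (57 and 13 cells, 3.14). EIF1B-AS1 was the most abundant of this group, with 1 to 10 UMIs in all cells of batch 1 and a median of 4. In batch 2, 59 cells held none, 14 held 1 and 3 held 12, 15 and 18 UMIs. Its log2 ratio was 3.56, and WT cells were near 0 at 0.138 and 0.038 UMIs. The ratios of ATP2B1-AS1 (2.85), ENSG00000259001 (3.11), RNU6-353P (3.81) and a signal recognition particle RNA copy named Metazoa_SRP (3.47) complete the 15 highest. Among the 15 lowest, ENSG00000239381 (-4.59), LYRM4-AS1 (-3.49) and ENSG00000261997 (-3.29) were held by all 76 cells of batch 2 and by 4 to 7 cells of batch 1. As no strand setting of the counting is given in the sources used here, antisense genes cannot be told apart from reads of their partners.

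Pathways of general cell function held no member past 2-fold. None of 79 cytosolic ribosomal protein genes, 15 mitochondrially encoded genes, 75 nuclear-encoded respiratory chain genes, 49 splicing factors, 30 proteasome genes, 21 glycolysis genes, 26 chaperones and 19 aminoacyl-tRNA synthetases was past 2-fold, and the list medians lay between -0.011 and 0.025. Over all genes the share past 2-fold was 5.21%. It was 12.6% where the higher batch mean was 1 to 3 UMIs and 0.411% where it was 3 to 10 UMIs. These are the shares to set beside each list below, by its level. The lowest and highest ratios over the ribosomal protein genes were -0.06 for RPL17 and 0.04 for RPS10. MT-ND1, a subunit of respiratory complex I, had scaled means of 1939 and 2009 UMIs (log2 ratio -0.05). These lists hold abundant transcripts, where the share of all genes past 2-fold was also small. Whether the deposited values had been adjusted for batch is not stated, so near-equal means are not read as agreement between the batches.

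The cell cycle lists held 2 members past 2-fold, in cells gated on G1 in both batches. Past 2-fold were 5.21% of all genes, 12.6% at 1 to 3 UMIs and 0.411% at 3 to 10 UMIs in the higher batch. The S phase and G2 lists had median levels of 8.22 and 7.18 UMIs. None of 54 G2 and mitosis genes was past 2-fold, with CDC25C (0.80) and CENPA (-0.76) the farthest, and none of 18 G1 cyclin, CDK and RB-E2F genes. Of 46 S phase genes only GINS4, of the replicative helicase complex, was, with scaled means of 0.748 and 1.71 UMIs (log2 ratio -1.14). Of 3 replication-dependent histone genes tested, H4C14 was detected in 7 of 77 and 66 of 76 cells (-2.79), while H4C3, with a raw mean of 18.13 and 32.01 UMIs, had a ratio of 0.06. None of 16 immediate-early genes, 30 ATF4 targets, 18 NRF2 genes, 5 metallothioneins, 25 cholesterol genes and 13 interferon-stimulated genes was past 2-fold, beside the same shares by level. This did not hold under every setting. KLF4 (-0.97) was at -1.05 and the sterol gene FDPS (-0.93) at -1.07 without the highest cell of each batch. With cells thinned, KLF4 was at -1.62, ADM2 (0.93) at 1.16, the sterol gene ACAT2 (-0.39) at -1.34 and the RNA sensor RIGI (-0.87) at -1.04.

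Of 12 cohesin and loader genes tested, none was past 2-fold with all UMIs, and the list median was -0.0017. The widest ratios after MAU2 were those of PDS5B (-0.48) and WAPL (-0.42), which release or hold cohesin on DNA, and of the SMC3 deacetylase HDAC8 (-0.39). All were higher in batch 2 by less than the threshold.

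The lists with the widest spread were those of patterning and adhesion genes, in which single members were past 2-fold in either direction. Of 14 HOX genes tested, HOXA6 was higher in batch 1 and HOXA5 in batch 2. The median absolute log2 ratio over the list was 0.54 against 0.115 over all genes, with levels not matched. The median level was 1.65 UMIs in this list, 1.43 in the neuronal adhesion list below and 3 over all genes, and low genes spread more widely. HOXA5 (chr7:27141052-27143681, minus strand), the neighbour of HOXA6, was detected in 7 of 77 cells of batch 1 and 62 of 76 cells of batch 2 (log2 ratio -2.41). Other HOXA genes that were tested varied: HOXA9 and HOXA10 had ratios of 0.14 and 0.13, while HOXA13 stood at -0.60, with a UMI in 63.6% of batch 1 and 98.7% of batch 2. Beside these 2 of 14, 12.6% of all genes with 1 to 3 UMIs in the higher batch were past 2-fold.

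Of 17 neuronal adhesion, synapse and axon guidance genes, 3 were higher in batch 1 and 3 in batch 2, where 12.6% of all genes at 1 to 3 UMIs were past 2-fold. Higher in batch 2 were PLXNA4, described above, the neuroligin NLGN4X (8 and 76 cells with a UMI, -2.60) and the L1-family adhesion molecule CHL1 (24 and 69 cells, -1.32). Higher in batch 1 were NCAM1 (56 and 36 cells, 1.56), the neuroligin NLGN1 (scaled means of 3.61 and 1.49 UMIs, 1.25) and the ephrin receptor EPHA4 (3.01 and 1.35 UMIs, 1.12). No direction was common to the list, whose median was 0.13. Of 11 intermediate filament genes, the peripheral neuron filament PRPH (15 and 67 cells, -1.86) and the keratin KRT8 (11 and 52 cells, -1.51) were higher in batch 2. Of 19 matrix and integrin genes, the collagen COL4A6 (-1.54) and the integrin beta subunit ITGB1 (-1.29) were. These counts of 2 stand beside the same 12.6% of low genes. ITGB1 held 0 UMIs in 54 cells of batch 1, 1 in 15 and 4 to 7 in 8 others, with no cell at 2 or 3, whereas all 76 cells of batch 2 held 1 to 12.

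Most regulators of chromatin and long noncoding RNAs were under 2-fold, 24 of 27 and 23 of 27, with medians of 0.015 and -0.0023, beside 5.21% of all genes past it. Of the 27 polycomb and DNA methylation genes, the polycomb methyltransferase EZH1 (-1.65) and its cofactor JARID2 (-1.20) were higher in batch 2 and the 5-methylcytosine dioxygenase TET2 (1.16) in batch 1. Of the 27 nuclear and regulatory long noncoding RNAs, MIR17HG (-1.61), the host of a microRNA cluster, and PVT1 (-1.56) were higher in batch 2. KCNQ1OT1 (1.37) and SNHG14 (1.18), long transcripts that silence neighbouring imprinted genes in cis, were higher in batch 1, and they were the 2 of 10 imprinted genes past 2-fold. KCNQ1OT1 held 1 to 5 UMIs in 69 of 77 cells of batch 1, and in batch 2 it held 0 in 32 cells, 1 in 33 and 4 or 5 in 11. H19, another imprinted RNA, was even at 0.22.

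In other lists, 1 of 9 oncofetal, 1 of 6 MHC class I, 1 of 24 unfolded protein response and 1 of 12 hypoxia genes were past 2-fold. Of 22 p53 genes, 1 was past it in each direction. Beside these stand 5.21% of all genes and 12.6% of genes at 1 to 3 UMIs, with levels not matched. IGF2BP3, an oncofetal mRNA-binding protein, was detected in 69 of 77 cells of batch 1 and 13 of 76 of batch 2 (2.49), while its paralogue IGF2BP2 had a ratio of 0.11. NLRC5, the transactivator of MHC class I genes, was detected in 10 and 76 cells (-2.33), while HLA-C (-0.11) and HLA-E (0.26) were not past 2-fold. The unfolded protein sensor ERN1 (-1.15), the collagen prolyl hydroxylase P4HA1 (-1.24) and the p53 target SESN1 (-1.16) were higher in batch 2, and the ubiquitin ligase subunit FBXW7 (1.21) in batch 1. Of 71 zinc finger genes on chromosome 19, 2 were higher in batch 1 (ZNF799 at 1.74 and ZNF554 at 1.60) and 4 in batch 2, among them ZNF180 (-1.58) and ZNF446 (-1.56), a list of low genes to be read beside the 12.6% of all genes at 1 to 3 UMIs. No clustered protocadherin gene reached a mean of 1 UMI.

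**Figure D4:**
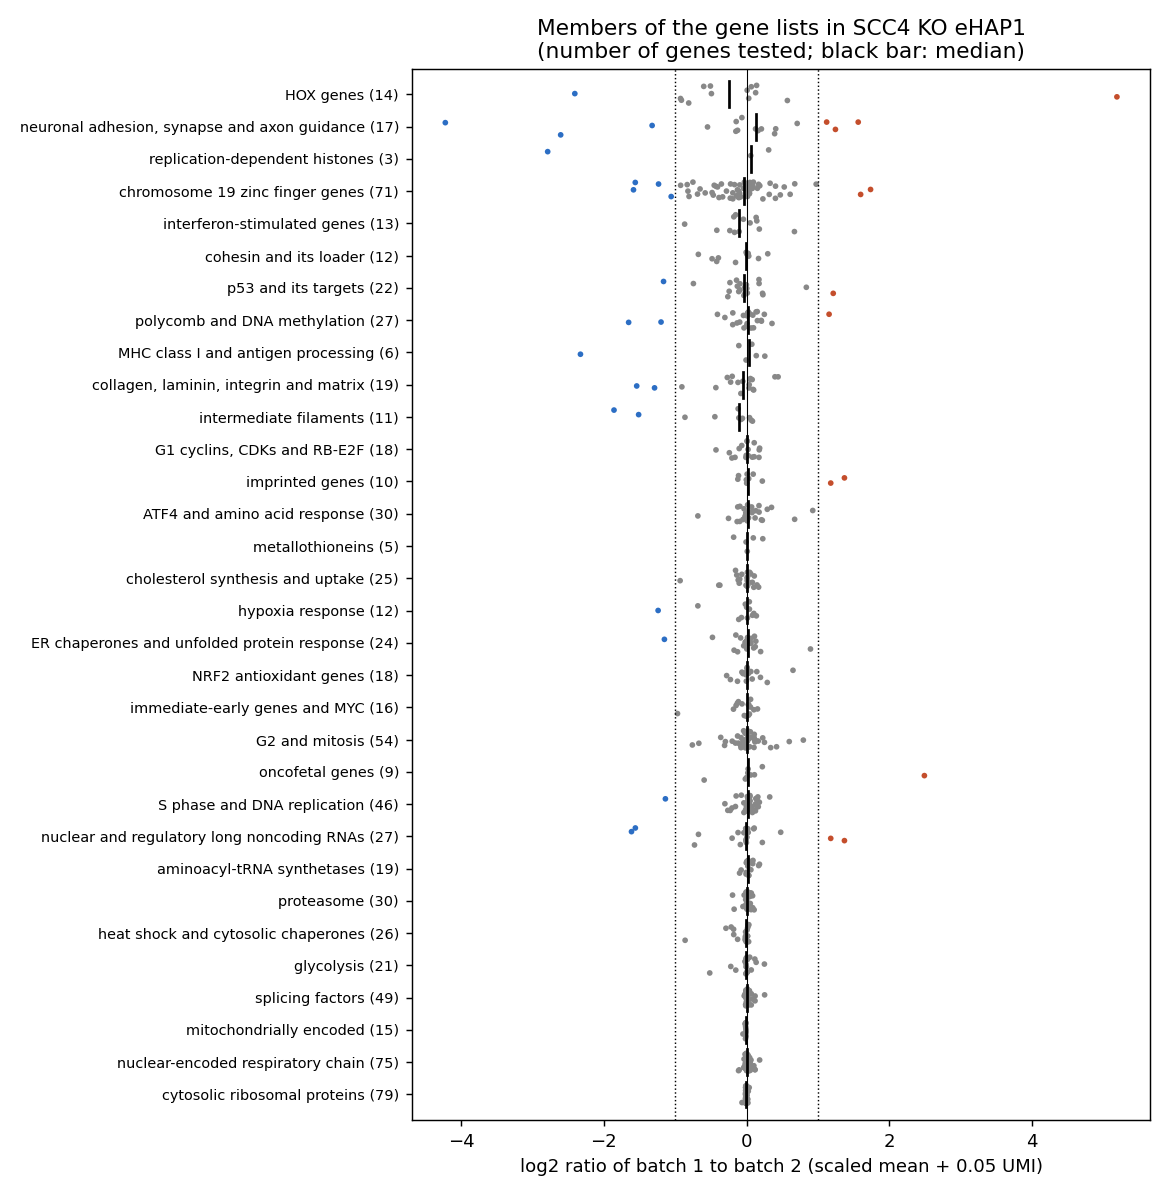
log2 ratio of batch 1 to batch 2 (x axis) for the members of each gene list with at least 3 genes tested in SCC4 KO cells, with dotted lines at 2-fold and a black bar at the median. The 79 ribosomal protein genes lie between -0.06 and 0.04, and the HOX and neuronal adhesion lists, both of low genes, are the widest.

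The same rule applied to the WT batches called 641 of 9924 genes (6.46%), and between the HEK293T libraries it called 2420 of 10586 (22.9%), with only 10 cells in each library. The direction of a batch difference in KO cells was not, across genes, shared with the equally numbered WT batches. Of the 525 genes past 2-fold in KO cells, 513 were listed in WT, where 257 had the same sign and 256 the opposite one. Past 2-fold in WT as well were 55 of the 513 genes in the same direction and 73 in the opposite one. Beside these stand the 6.46% of genes tested in WT that were past it in either direction, although the 513 were not filtered on their WT mean. Across 10065 genes, which are not independent replicates, Spearman's rho between the KO and WT ratios was -0.020. PCDH17 (3.14 in KO, 3.42 in WT), ATP2B1-AS1 (2.85 and 3.14) and LMLN (3.46 and 2.22) were higher in batch 1 of both genotypes.

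**Figure D5:**
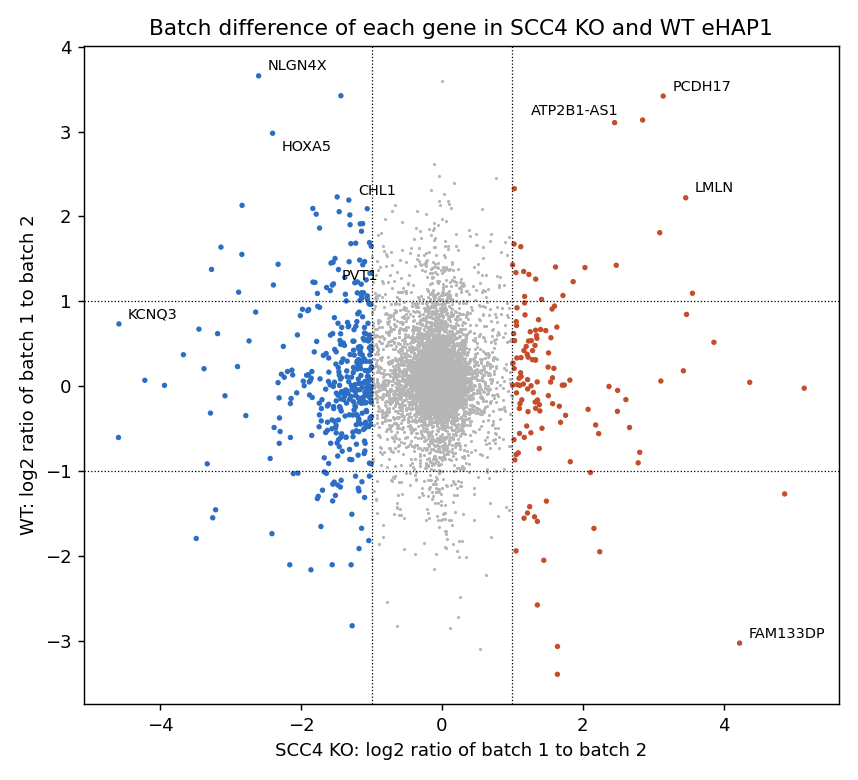
log2 ratio of batch 1 to batch 2 of each gene in SCC4 KO cells (x axis) and in WT cells (y axis), with dotted lines at 2-fold. Genes past 2-fold in KO cells are coloured, and they lie on both sides of 0 in WT, 257 with the same sign and 256 with the opposite one.

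No chromosome shifted as a whole. The median log2 ratio ranged from -0.029 on chromosome 13 to 0.012 on chromosome 8, and the share of genes past 2-fold from 2.02% on chromosome 21 to 7.59% on chromosome 18. By gene type, 90 of 382 long noncoding RNAs (23.6%) were past 2-fold, 29 higher in batch 1 and 61 in batch 2, against 4.53% of 8733 protein-coding genes, with levels not matched between the types. The length and GC content of the longest annotated transcript, known for 99.8% of the genes, were compared with the log2 ratio across genes, where Spearman's rho was -0.0057 for length and 0.017 for GC content. The share past 2-fold was 4.47% in the quintile of shortest transcripts and 7.11% in that of the longest, where the median level was also lower, at 2.62 against 3.64 UMIs.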

How the data were processed

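The authors deposited UMI counts per gene and cell for eHAP1 and HEK293T cells, aligned to GRCh38 and counted in exons with zUMIs, with demultiplexing by bcl2fastq 2.20 per the labels. Wells with few exon reads or a low exon mapping rate had been removed. Rows of pseudoautosomal copies on Y were left out. Each cell was scaled to the median total over both KO batches, means were taken over cells, 0.05 UMI was added and the log2 ratio of batch 1 to batch 2 was formed for genes with a raw mean of at least 1 UMI in either batch. A ratio of 2-fold was called. Names matched 99.7% of identifiers, and positions came from a GENCODE release for GRCh38. The genes named were the 15 highest and 15 lowest ratios, the genes on in one batch only, VAT1L, MAU2 and up to 4 members of each list with the widest ratios. Members of a list past 2-fold beyond these, single-cell peaks and genes of at least 5 UMIs were chosen after their values were seen. Members and lists were chosen with earlier results of these data known. The ratio was tested on simulated data. Exact binomial intervals are at the 95% level. Python 3.11.15, numpy 2.4.6, pandas 2.3.3 and scipy 1.17.1 were used. A few genes that met these rules are not reported here.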

Additional observations from a re-analysis of the deposited data

Results flagged for a closer look

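For 6 named genes the KO and WT batches moved past 2-fold in opposite directions, with a WT mean of at least 1 UMI. Without that limit on the WT mean, 73 of the 513 called genes listed in WT did so, and 55 were past 2-fold in the same direction. The difference between the genotypes was not tested, since each batch is 1 library. The log2 ratio in KO minus that in WT was -6.26 for NLGN4X, -5.39 for HOXA5, -3.52 for CHL1 and -2.75 for PVT1, all higher in batch 2 of the KO cells and in batch 1 of the WT cells. It was 7.25 for FAM133DP and 2.71 for FBXW7, in the reverse order.

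NLGN4X was detected in 10.4% of KO cells of batch 1 and all of batch 2, and in 98.6% and 9.33% of WT cells of batches 1 and 2. For HOXA5 the shares were 9.09% and 81.6% in KO and 79.5% and 9.33% in WT. FAM133DP was detected in 94.8% and 2.63% of KO cells and in 6.85% and 96.0% of WT cells. In each of these genes, flagged because the directions were opposite, the batch with the gene in one genotype carried the other number in the second genotype. Whether a batch number stands for the same day or plate in both genotypes is not given in the sources used here.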

How the results depend on the processing

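The number of genes past 2-fold depended on the level at which genes entered and on the pseudocount. With 0.5 UMI added, 71 genes were higher in batch 1 and 83 in batch 2. Requiring at least 5 UMIs left 1 and 5 genes, and lowering the minimum to 0.1 UMI gave 1094 and 1408. Summed UMIs, scaling by the median ratio, totals without mitochondrially encoded and ribosomal protein genes, 0.005 UMI added, cells thinned to 40000 UMIs and means without the highest cell gave 131 to 160 and 372 to 478 genes, within 1.5 times the values reported. Of the thinned calls, 115 of 160 and 300 of 429 were among the genes reported. Genes on in one batch only numbered 8 in batch 1 and 33 in batch 2 with limits of 10% and 40% of cells, and 4 and 1 after thinning. The one in batch 2 was KCNQ3, and those in batch 1 included DNAH1 and ATP2B1-AS1. No named gene past 2-fold changed direction under the 5 alternatives run for it. Of 155 named genes, 15 fell under 2-fold with 0.5 UMI added, 3 after thinning and, without the highest cell, only DNAJC28. Newly past 2-fold were 9 after thinning (MAU2, KLF4, ADM2, DNAJC3, ACAT2, TP53I3, RIGI, FN1 and HOXB6) and 3 without the highest cell (KLF4, FDPS and FN1). No list or chromosome median passed 2-fold under its alternatives. The WT count was 533 with summed UMIs. No paired analysis was possible because each batch is 1 library of its genotype. Most genes past 2-fold lie below about 3 UMIs per cell, where many genes also had the gap in values described above. The parts of depth and of that gap in these calls were not tested. No replicate library shows how far such genes vary within a batch.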
